A study of Mus musculus with 4 samples.

Results

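The genes of glycolysis and of the hypoxia response were examined in whole mouse embryos that lacked Ddx6, an RNA helicase of mRNA decay and translational repression. The genes were 39 listed symbols of the 24421 genes in the count table, listed by name with earlier results of these data known, and 37 of them passed the minimum of 10 reads in at least 1 library. The RNA-seq series held 4 libraries of ICR strain embryos. E7.5 WT and E8.5 WT were 1 wild-type library each, at embryonic days 7.5 and 8.5, and the number of embryos behind them is not given in the sources used here. KO1 and KO2 were the 2 libraries of Ddx6 KO embryos at embryonic day 8.5, replicates 1 and 2 of the labels. These embryos came from crosses of heterozygotes and carried a germline deletion of Ddx6 exon 5, made by removing a floxed exon with a ubiquitous Cre. KO1 was a pool of 2 embryos, 1 of them from before head-fold formation and the other with head folds. KO2 was a pool of 3 embryos, all from before head-fold formation. Where 4 values of a gene are given with no library named, they stand for E7.5 WT and E8.5 WT, followed by KO1 and KO2. In whole embryos, fewer cells of a type and less RNA per cell cannot be told apart.

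Glycolysis breaks glucose down to pyruvate in the cytoplasm. Pyruvate then either enters the mitochondria, where the pyruvate dehydrogenase complex turns it into acetyl-CoA, or is reduced to lactate and leaves the cell through monocarboxylate transporters. When oxygen is scarce, the prolyl hydroxylases that mark the hypoxia-inducible factors (HIF) for destruction lose activity, and HIF induces glucose transporters, most glycolytic enzymes, pyruvate dehydrogenase kinase and its own hydroxylases. The gastrulating mouse embryo is known for a high rate of glycolysis.

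HIF binds DNA at a short core of ACGTG or GCGTG. The 150 bases before the start of transcription are shown for the 6 genes that were more than 2-fold lower in KO1 than in E8.5 WT, since all of them are textbook targets of HIF or enzymes of the pathway it induces, and for Ldhb, which was higher in both KO libraries. The sequences are from RefSeq (GRCm38.p6), written 5′ to 3′ on the strand of the gene, and capitals mark the core on either strand. For Pfkfb3 the second start is shown, because the window before the first lay almost wholly in an annotated exon.
Pdk1 (chr2:71873074-71873223, plus strand): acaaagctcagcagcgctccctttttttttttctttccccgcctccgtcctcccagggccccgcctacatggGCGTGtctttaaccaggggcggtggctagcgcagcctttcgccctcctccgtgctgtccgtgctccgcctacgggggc
Hk2 (chr6:82774455-82774604, minus strand): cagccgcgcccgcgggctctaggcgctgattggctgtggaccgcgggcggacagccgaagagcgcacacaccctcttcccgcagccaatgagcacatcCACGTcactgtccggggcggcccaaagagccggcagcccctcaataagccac
Pgk1 (chrX:106186950-106187099, plus strand): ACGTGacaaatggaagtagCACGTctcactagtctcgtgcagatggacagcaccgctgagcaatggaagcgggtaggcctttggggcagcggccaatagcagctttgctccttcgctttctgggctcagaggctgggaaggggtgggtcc
Pfkfb3 (chr2:11502091-11502240, minus strand): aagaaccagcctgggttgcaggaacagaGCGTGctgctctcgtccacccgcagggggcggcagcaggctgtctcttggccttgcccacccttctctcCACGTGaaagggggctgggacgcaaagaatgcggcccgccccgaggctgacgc
Slc16a3 (chr11:120948917-120949066, plus strand): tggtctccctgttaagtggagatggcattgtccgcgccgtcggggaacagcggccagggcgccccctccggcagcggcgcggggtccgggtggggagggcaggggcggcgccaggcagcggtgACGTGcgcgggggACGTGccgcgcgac
Bnip3 (chr7:138909507-138909656, minus strand): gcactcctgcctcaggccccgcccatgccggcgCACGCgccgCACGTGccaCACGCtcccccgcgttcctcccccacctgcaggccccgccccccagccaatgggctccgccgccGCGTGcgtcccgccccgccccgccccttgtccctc
Ldhb (chr6:142507958-142508107, minus strand): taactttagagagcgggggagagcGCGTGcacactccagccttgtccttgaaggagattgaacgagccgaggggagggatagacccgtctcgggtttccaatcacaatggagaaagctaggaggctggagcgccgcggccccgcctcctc
Overlapping matches were counted apart, so that CACGTG, as in Pfkfb3 and Bnip3, counted as 2. Pdk1 and Ldhb each held 1 GCGTG core and no ACGTG. Of all 32851 promoter windows of this length, from 27025 genes, 28.6% held ACGTG or GCGTG and 11.2% held ACGTG. Among the glycolysis and hypoxia genes, 36 had an entry, with 51 windows, of which 72.5% held either core and 37.3% held ACGTG. Slc2a3, Epas1 and Ndrg1 had no entry. Base composition was not matched between these windows, and a match is a description of the letters only.

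The WT libraries held 12095555 (E7.5) and 12562640 (E8.5) counts, KO1 held 8198402 and KO2 held 12008252. The deleted gene, Ddx6, had 2943, 5715, 706 and 929 reads, a log2 change of -2.54 ± 0.10 (SD, n = 2) from E8.5 WT. All 7 markers of the whole embryo, such as Sox2, T and Pou5f1, had reads in each library, with sums of 985 and 419 CPM in the WT libraries, 488 in KO1 and 872 in KO2. CPM stands for reads scaled to a common library total with factors from the trimmed mean of M-values (TMM). Several other marker lists moved with the groups. Markers of visceral endoderm, the yolk sac epithelium, summed to 6901 and 7185 CPM in the WT libraries against 4280 and 4082 in the KO libraries, with all 8 detected in every library. Trophoblast markers summed to 251 and 183 CPM in the WT libraries and to 425 and 1053 in the KO libraries, with 6 of 12 detected in each WT library, 7 of 12 in each KO library, and Tpbpa, Prl3b1, Prl2c3 and Prl7b1 at 0 throughout. Primitive erythroid markers summed to 250 CPM in E8.5 WT, to 2.38 and 5.17 in the KO libraries and to 31.4 in E7.5 WT, and 5 to 7 of the 8 were detected. Cardiac muscle markers stood at 11.8, 256, 51.3 and 32.3 CPM and endothelial markers at 76.7, 317, 304 and 236 CPM. For maternal decidua the sums were 296, 128, 183 and 285 CPM, from the 8 markers in the table, and for uterine natural killer cells 1.51, 0.325, 2.14 and 13.1 CPM. The part of these differences in the results that follow was not tested.

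All 39 genes together took 2.53% and 2.13% of the reads of the WT libraries, 1.71% of KO1 and 1.77% of KO2. Most of that came from 19 genes that encode glycolytic enzymes, the lactate dehydrogenases and the fructose 2,6-bisphosphate regulators, which took 1.75%, 1.27%, 0.861% and 1.13% in the same order. The share of the enzymes was thus lowest in KO1, and KO2 lay between KO1 and E8.5 WT. The order of the WT libraries placed the younger stage highest. Exact binomial 95% intervals of these shares were at most 0.868% for KO1 and at least 1.12% for KO2 and 1.27% for E8.5 WT, and all intervals given here cover counting error alone, because without molecular identifiers several reads can stem from 1 molecule.

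Per kilobase of exon, the highest level in E8.5 WT was that of Ldha, at 822 CPM per kb. Pkm followed at 801, Slc2a3 at 571, Aldoa at 538 and Slc2a1 at 485 CPM per kb. The lowest levels among the 37 genes that passed the minimum were those of Pdk4, at 0.0695 CPM per kb, and of Pdk2, at 1.98. In KO1 the order of the leading genes was changed, with Slc2a1 first at 608 CPM per kb, ahead of Ldha at 549, Pkm at 547 and Slc2a3 at 528. In KO2 Ldha led again at 793 CPM per kb, followed by Pkm at 686, Aldoa at 455 and Slc2a1 at 347. Ldha and Pkm, and likewise Slc2a3 and Aldoa, cannot be ordered firmly within E8.5 WT, for which there was no second library.

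**Figure D1:**
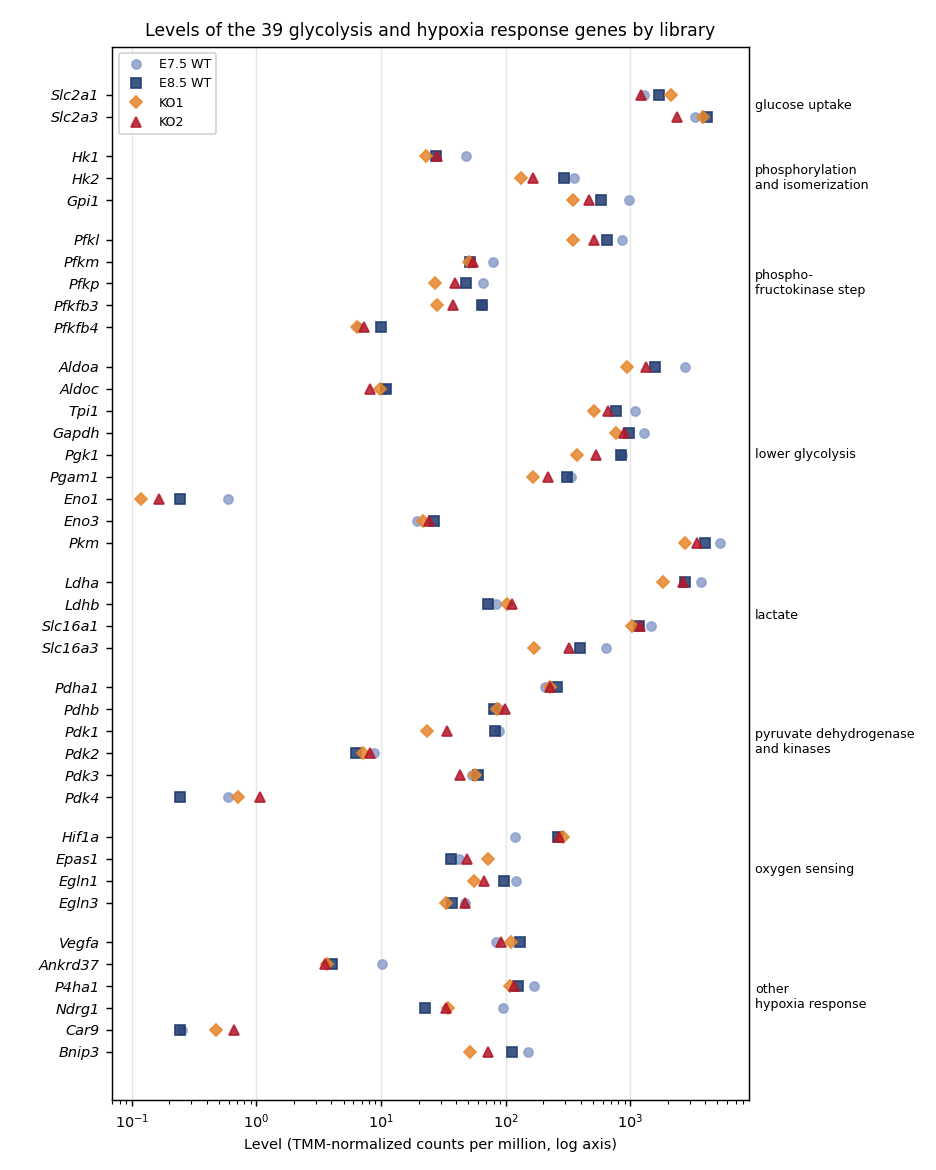
Level of each gene in the 4 libraries, in TMM-normalized CPM on a log axis, grouped by role, with 1 symbol per library and no error bars because each symbol is 1 library. For Pdk1 both KO symbols sit well to the left of both WT symbols, and for Ldhb both sit to the right, while Eno1, Pdk4 and Car9 lie near the floor of detection.

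Changes are differences of log2 CPM, and the criterion for a call was that of the study's methods, a log2 change above 1 or below -1. KO1, KO2 and the comparison of the WT stages all use the E8.5 WT library, so their values against it are not independent. Of the 37 genes, 1 was called lower in both KO libraries (2.70%), which was Pdk1, where 1.79% of all 14393 genes tested were. The only gene called higher in both was Pdk4, with 3.44% of all genes called. Against both WT libraries at once, Pdk1 was again called lower (0.361% of all genes), and 0 genes were called higher (0.750% of all genes). A single call is a share near the background.

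KO1 and KO2 differed in how many calls they gave. In KO1, 6 of the 37 genes (16.2%) were lower by more than 1, namely Hk2, Pfkfb3, Pgk1, Slc16a3, Pdk1 and Bnip3, beside 3.31% of all genes. In KO2 only Pdk1 was lower (2.70%), beside 5.91% of all genes. Pdk4 was the 1 gene called higher in each of them, beside 4.97% of all genes in KO1 and 9.41% in KO2. Between the KO libraries themselves, 0 of the 37 genes were called higher in KO2 and 0 lower, where 5.99% and 4.89% of all genes were. At a smaller threshold of 0.5 required in both KO libraries, 7 genes (18.9%) were lower, namely Hk2, Pfkfb3, Pgk1, Pgam1, Pdk1, Egln1 and Bnip3, and 3 were higher, namely Ldhb, Pdk4 and Ndrg1. The shares of all genes at that threshold were 5.43% and 10.2%.

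Taken over the 37 genes, the log2 change had a median of -0.28 in KO1 and of -0.22 in KO2, against -0.01 and -0.00 for all genes. From E7.5 WT to E8.5 WT the median of the 37 genes was -0.33, against -0.02 for all genes. Both KO values were below 0 for 25 of the 37 genes (67.6%), and the same held for 37.6% of all genes. The level in KO1 was below that in KO2 for 27 genes (73.0%), beside 53.2% of all genes. The 95% counting interval lay below 0 in both KO libraries for 20 genes, beside 15.8% of all genes, and above 0 in both for Ldhb, Epas1 and Ndrg1, beside 13.7% of all genes. Against both WT libraries, 16 genes had every interval below 0 and 2 genes, Ldhb and Epas1, had every interval above it. For all genes these shares were 5.80% and 5.41%. Such intervals hold no spread between embryos. They also narrow as reads rise, so that a change of -0.05, that of Ldha in KO2, counted as below 0. The shares of all genes beside them, here and below, were not matched for read depth.

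**Figure D2:**
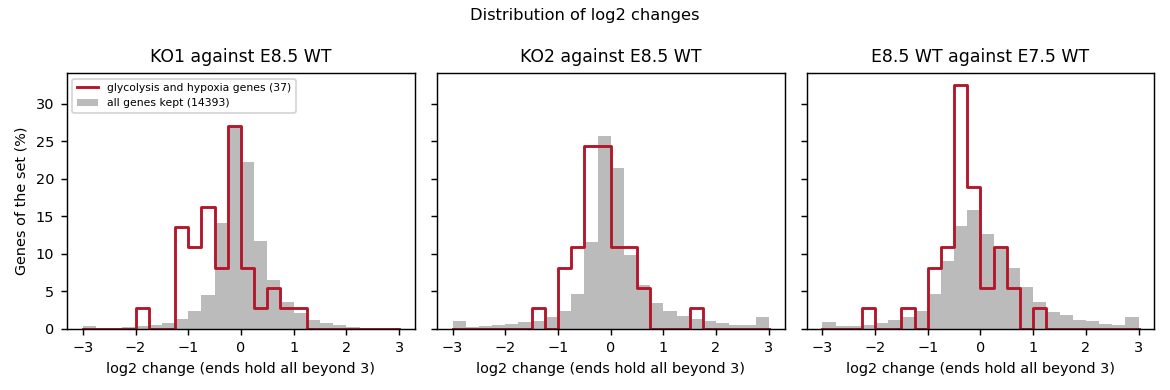
Distribution of log2 changes in bins of 0.25, as the percentage of genes, for the 37 genes (line) and all 14393 genes kept (bars), with the end bins holding all changes beyond 3. The line lies to the left of the bars in KO1, with a median of -0.28 against -0.01, and less so in KO2, with -0.22 against -0.00, and it lies left also between the WT stages.

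Against E8.5 WT, the edgeR quasi-likelihood test rests on the spread between KO1 and KO2 alone. It called 0 of all genes after Benjamini-Hochberg adjustment (0%), and so did the test against the WT libraries as 1 group, whose spread holds the stage difference as well. Before adjustment, 1052 genes (7.31%) had a p under 0.05 against E8.5 WT. Among them were 9 of the 37, namely Hk2, Pfkfb3, Pgk1, Pgam1, Pdk1, Egln1 and Bnip3, all lower, and Ldhb and Ndrg1, both higher. Against both WT libraries the corresponding figures were 565 genes (3.93%) and 14 of the 37. Without KO1 this second test called 51 genes after adjustment, and without KO2 it called 1, with 0 of the 37 in either case. DESeq2, with the same groups, called 31 genes (0.215%) against E8.5 WT after adjustment, and 3 of them were Hk2, Pgk1 and Pdk1. It called 32 genes (0.222%) against both WT libraries, among them Hk2 and Pdk1.

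Glucose enters embryonic cells through facilitative transporters of the Slc2a family. Slc2a3, the high-affinity transporter GLUT3, had 39423 and 50852 reads in WT at E7.5 and E8.5, and 32138 and 28683 in KO1 and KO2, with log2 changes against E8.5 WT of -0.11 in KO1 and -0.81 in KO2. Slc2a1, the widely expressed transporter GLUT1, had 15285, 20914, 17909 and 14827 reads, with changes of 0.33 and -0.48. The KO libraries were therefore on opposite sides of E8.5 WT for Slc2a1. Both transporters were higher at E8.5 than at E7.5, by 0.41 for Slc2a1 and 0.32 for Slc2a3, and they showed the largest differences of the 37 genes towards lower levels in KO2 than in KO1, -0.81 for Slc2a1 and -0.70 for Slc2a3. The pair took 0.571% of the reads of E8.5 WT, 0.610% of KO1 and 0.362% of KO2. Neither transporter passed the criterion of a call in either KO library. Slc2a1 provided 35.8% and 34.1% of the reads of the pair in KO1 and KO2, above the 27.9% and 29.1% of the WT libraries.

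The first steps trap glucose in the cell and rearrange it. Hk2, the hexokinase that is induced by hypoxia, lies at 82725025 to 82774454 on the minus strand of chromosome 6 (GRCm38). It had 4229 and 3619 reads in WT at E7.5 and E8.5, and 1116 and 2027 in KO1 and KO2, and the groups did not overlap after normalization. Against E8.5 WT the log2 change was -1.15 (95% counting interval -1.25 to -1.05) in KO1, and in KO2 it was -0.82 (-0.90 to -0.75), a mean of -0.99 ± 0.23 (SD, n = 2), while the WT stages differed by -0.27. The adjusted p was 0.666 with edgeR and 0.0143 with DESeq2. Hk1, the housekeeping hexokinase, had 568, 341, 191 and 345 reads, with changes of -0.28 and 0.03. Hk2 made up 88.2% and 91.4% of the hexokinase reads in the WT libraries, 85.4% in KO1 and 85.5% in KO2. Gpi1, which isomerizes glucose 6-phosphate, had 11552, 7147, 2916 and 5709 reads, with changes of -0.74 and -0.31, and it also differed by -0.74 between the WT stages.

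Phosphofructokinase commits fructose 6-phosphate to glycolysis, and the Pfkfb enzymes set the level of its activator. Pfkl, the liver isoform and the main one here, had 10203 and 7974 reads in WT at E7.5 and E8.5, and 2928 and 6233 in KO1 and KO2, with log2 changes of -0.90 and -0.34 against E8.5 WT. Pfkp, the platelet isoform, was lower by a similar amount, with changes of -0.82 and -0.29, whereas those of Pfkm, the muscle isoform, were -0.03 and 0.09. Pfkm thus provided 11.8% and 9.07% of the phosphofructokinase reads in the KO libraries and 7.94% and 6.87% in the WT libraries. Pfkfb3, a bifunctional enzyme that favours synthesis of the activator and is induced by hypoxia, lies on chromosome 2 at 11471433 to 11554077. It had 773, 789, 236 and 462 reads, with changes of -1.19 in KO1 (-1.41 to -0.98) and -0.76 in KO2 (-0.93 to -0.59). The WT stages were within 0.02 of each other, and both KO levels lay below them. Pfkfb4, with 77, 122, 54 and 89 reads, gave -0.61 and -0.43 with wide intervals that reached -0.15 and -0.04.

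The enzymes from aldolase to pyruvate kinase split the 6-carbon sugar and harvest ATP. Of the 9 listed, 8 passed the minimum, and all 8 were below 0 in both KO libraries, beside 37.6% of all genes. Their medians were -0.57 in KO1 and -0.23 in KO2. Pgk1, the first enzyme to make ATP in the pathway, was the one with a change beyond 1. It had 10198 and 10306 reads in WT at E7.5 and E8.5, and 3159 and 6417 in KO1 and KO2, at 106187100 to 106203699 on the X chromosome. The WT libraries were close together, at -0.03 between stages, and the KO libraries differed from E8.5 WT by -1.16 (-1.21 to -1.10) and -0.67 (-0.72 to -0.63) on the log2 scale, a mean of -0.91 ± 0.34 (SD, n = 2). DESeq2 gave an adjusted p of 0.0246 and edgeR one of 0.666. Of the distinct 50-base words in the annotated Pgk1 transcripts, 53.9% also occurred in other genes, nearly all in Pgk1-rs7, so its counts are uncertain.

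The next enzyme, Pgam1, had 4006, 3807, 1381 and 2658 reads and changed by -0.91 and -0.51, with 36.2% of its words shared with a pseudogene. Pkm, the most abundant enzyme by reads, makes pyruvate. It had 62176 and 49223 reads in WT at E7.5 and E8.5, and 22993 and 41793 in KO1 and KO2, which gave -0.55 and -0.22 against E8.5 WT and -0.38 between the WT stages. Aldoa, the main aldolase, had 32381, 19242, 7873 and 16136 reads, with -0.74 and -0.24 against E8.5 WT. For both genes the E7.5 WT level was the highest and the KO1 level the lowest. Tpi1, which interconverts the triose phosphates, gave -0.58 and -0.22. Gapdh, often taken as a reference transcript, gave -0.34 and -0.11. The brain aldolase Aldoc and the muscle enolase Eno3 were sparse, with 83 to 134 and 182 to 327 reads, and at least 1 of their KO intervals included 0.

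Eno1, the main enolase, was counted at only 7, 3, 1 and 2 reads, and no change was computed. Its near-identical copy Eno1b held 3234, 2586, 1471 and 2336 reads. Of the words of Eno1b, 76.4% were shared with Eno1, and of those of Eno1, 25.3% were shared with Eno1b. Reads from the shared part cannot be assigned to either copy here, so the enolase step remains uncertain. Why Eno1 had so few reads was not tested. Eno1b, named after its values were seen, gave log2 changes of -0.26 and -0.13. Pkm, Gapdh, Ldhb, Bnip3 and Pdhb also shared between 10.9% and 25.8% of their words with other genes, whereas Pdk1, Hk2, Slc16a3 and Egln1 shared 0.

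Over the enzymes and regulators from hexokinase to lactate dehydrogenase, 18 of which passed the minimum, 13 had counting intervals below 0 in both KO libraries and 1, Ldhb, had them above, beside 15.8% and 13.7% of all genes. The levels were ordered E7.5 WT, E8.5 WT, KO2, KO1 from highest to lowest in 12 of these 18 genes. The same order held for 17 of the 37 genes, beside 8.67% of all genes, and it was picked out after the values were seen. By that choice of order, the KO levels of these 17 genes lay below both WT stages, so this was not a test of embryonic stage. KO1 had the fewest reads in total. It gave the lower of the 2 KO levels in 17 of the 18 enzymes and regulators, beside 53.2% of all genes.

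**Figure D3:**
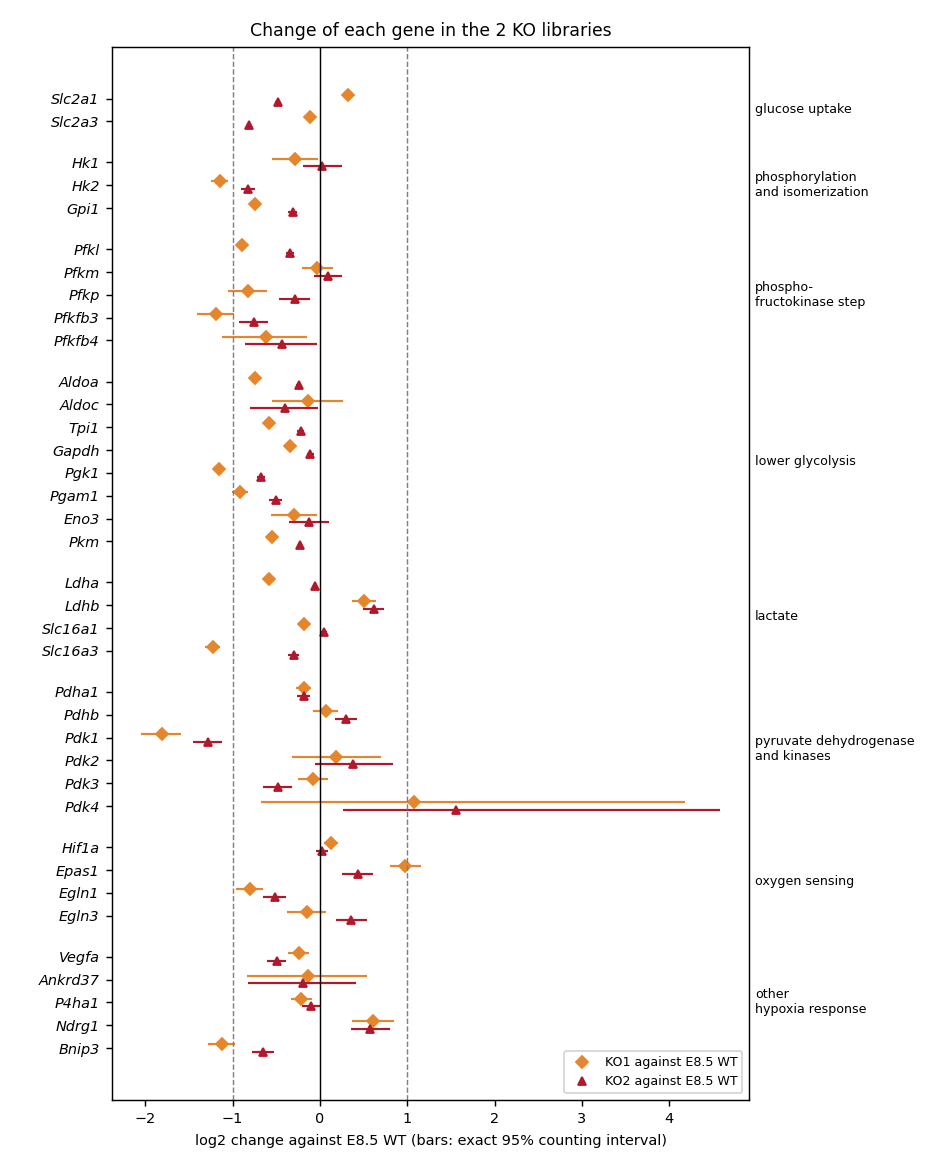
Log2 change of each of the 37 genes against E8.5 WT in KO1 (diamonds) and KO2 (triangles), grouped by role, with bars for the exact 95% counting interval and dashed lines at 1 and -1. Most glycolytic enzymes lie left of 0 with KO1 further left than KO2, Pdk1 is left of -1 in both, and Ldhb lies right of 0 in both at 0.51 and 0.61.

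Pyruvate and lactate are interconverted by lactate dehydrogenase, whose subunits Ldha and Ldhb favour lactate and pyruvate formation respectively. Ldha had 43575 and 33448 reads in WT at E7.5 and E8.5, and 15260 and 31981 in KO1 and KO2, with log2 changes of -0.58 and -0.05 against E8.5 WT. Ldhb, at 142490249 to 142507957 on the minus strand of chromosome 6, went the other way, with 998, 894, 868 and 1358 reads and changes of 0.51 (0.37 to 0.64) and 0.61 (0.49 to 0.74). Its mean of 0.56 ± 0.08 (SD, n = 2) was small but close between the KO libraries, and both KO levels were above both WT levels. The adjusted edgeR p was 0.666. Ldhb made up 2.24% and 2.60% of lactate dehydrogenase reads in the WT libraries, 5.38% in KO1 (exact 95% interval 5.04% to 5.74%) and 4.07% in KO2 (3.86% to 4.29%). Of its words, 21.0% were shared with Gm5514.

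Lactate is exported by monocarboxylate transporters. Slc16a3, the hypoxia-induced exporter MCT4, lies at 120948480 to 120960868 on the plus strand of chromosome 11 and had 7641 and 4877 reads in WT at E7.5 and E8.5, and 1423 and 3922 in KO1 and KO2. Its log2 changes of -1.23 (-1.31 to -1.14) and -0.30 (-0.36 to -0.24) differed by 0.92 between the KO libraries, the widest gap of any of the 37 genes, and their mean of -0.76 ± 0.65 (SD, n = 2) was hardly larger than their spread. Slc16a1, the transporter MCT1, had 17489, 14346, 8651 and 14665 reads and gave -0.18 and 0.04. Slc16a3 therefore made up 14.1% of the reads of the 2 transporters in KO1 and 21.1% in KO2, beside 30.4% and 25.4% in the WT libraries.

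**Figure D4:**
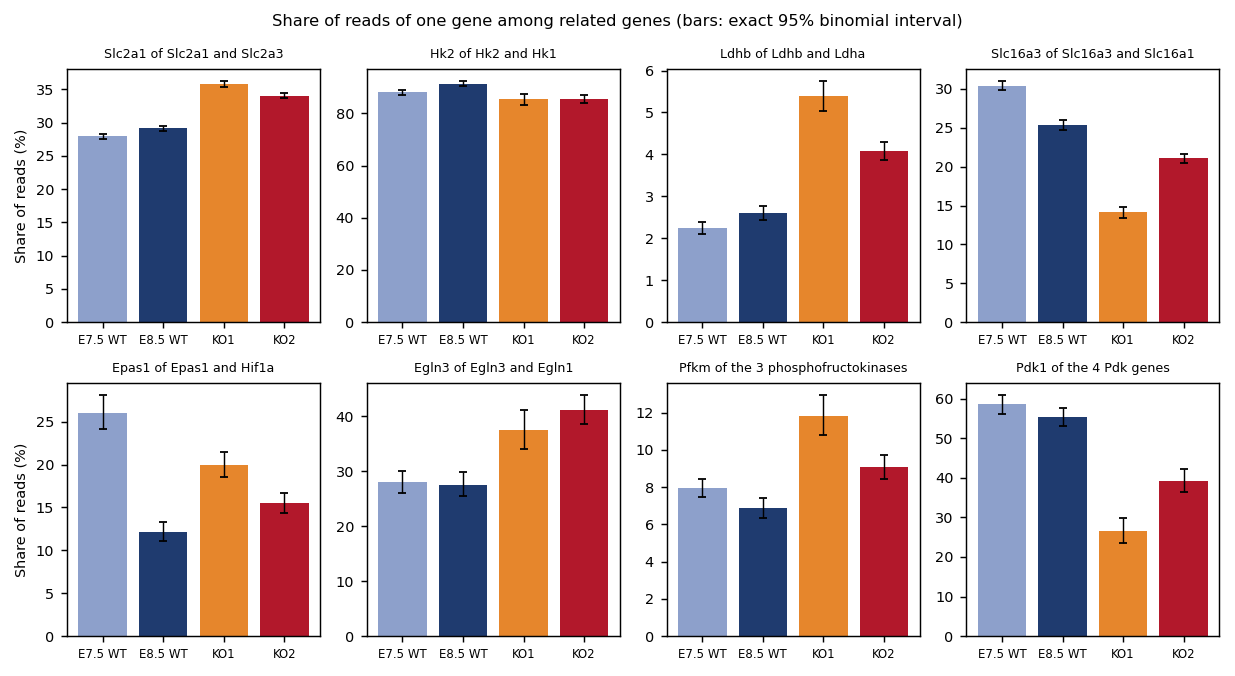
Share of reads (%) of 1 gene among related genes in each library, in 8 panels with axes from 0, with bars for the exact 95% binomial interval of the counting error. Pdk1 makes up 55.4% of the Pdk reads in E8.5 WT and 26.6% and 39.3% in the KO libraries, and Ldhb makes up 2.60% of lactate dehydrogenase reads in E8.5 WT and 5.38% and 4.07% in the KO libraries.

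Pyruvate dehydrogenase is the gate to the citrate cycle, and its kinases shut it. Pdk1, the kinase that HIF induces, lies at 71873224 to 71903858 on the plus strand of chromosome 2. It had 1056 and 1006 reads in the WT libraries, but 195 in KO1 and 409 in KO2. The WT libraries were almost equal, at -0.12 between stages, and both KO libraries were far below them. In KO1 the level was 3.51-fold lower than in E8.5 WT (log2 change -1.81, counting interval -2.05 to -1.60), and in KO2 it was 2.43-fold lower (-1.28, -1.46 to -1.12). The mean was -1.55 ± 0.37 (SD, n = 2), and against E7.5 WT the changes were -1.93 and -1.40. The unadjusted edgeR p was 0.00405 and the adjusted p 0.666, while DESeq2 gave an adjusted p of 0.0267.

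None of the other kinases was called lower. Pdk3 had 635, 731, 472 and 519 reads, with log2 changes of -0.08 and -0.48, and Pdk2 had 105, 77, 60 and 100, with 0.18 and 0.38. Pdk1 made up 58.6% and 55.4% of the reads of the 4 kinases in the WT libraries. Pdk3 held the largest share of reads in KO1, at 64.4%, and in KO2, at 49.9%. Per kilobase of exon, Pdk3 stood above Pdk1 in every library, at 20.8 against 11.4 CPM per kb in E7.5 WT. The levels were 23.2 against 10.5 in E8.5 WT, 21.9 against 2.99 in KO1 and 16.6 against 4.31 in KO2. Pdk4, the kinase induced in fasting, was near the floor of detection with 7, 3, 6 and 13 reads. Its 2.11-fold and 2.95-fold ratios carried log2 intervals of -0.68 to 4.18 and 0.26 to 4.58, so the call in KO1 was within counting error. The E7.5 WT level lay between those of E8.5 WT and KO1. The dehydrogenase subunits themselves had no call. Pdha1 had 2465, 3150, 1891 and 2744 reads and changed by -0.19 in each KO library, and Pdhb had 1059, 995, 711 and 1212 and gave 0.06 and 0.30.

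Oxygen is sensed by the prolyl hydroxylases, which control HIF at the level of the protein. Hif1a, the widely expressed HIF subunit, had 1424 and 3230 reads in WT at E7.5 and E8.5, and 2409 and 3252 in KO1 and KO2. The KO libraries were within 0.13 of E8.5 WT on the log2 scale, at 0.13 and 0.02, and both were above E7.5 WT, by 1.26 and 1.16. Hif1a was the 1 gene called higher at E8.5 than at E7.5, with a log2 change of 1.13 (1.04 to 1.23), beside 12.2% of all genes. Epas1, which encodes the HIF subunit known from endothelium, had 502, 447, 602 and 598 reads and was higher by 0.98 (0.80 to 1.16) in KO1 and by 0.43 (0.25 to 0.61) in KO2, while the endothelial markers summed to 304 and 236 CPM there, below E8.5 WT and above E7.5 WT. The mean for Epas1 was 0.70 ± 0.39 (SD, n = 2), and the unadjusted edgeR p was 0.0645. Epas1 accounted for 20.0% and 15.5% of the reads of Epas1 and Hif1a in KO1 and KO2, against 12.2% in E8.5 WT and 26.1% in E7.5 WT.

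The hydroxylases are themselves members of the response. Egln1, which encodes the main HIF hydroxylase and is itself induced by HIF, had 1436 and 1189 reads in WT at E7.5 and E8.5, and 464 and 822 in KO1 and KO2, with log2 changes of -0.81 (-0.97 to -0.65) and -0.52 (-0.65 to -0.39). Both KO levels were below both WT levels, and the mean was -0.66 ± 0.20 (SD, n = 2). Egln3, the most strongly hypoxia-induced of the family, had 557, 452, 278 and 575 reads and gave -0.15 and 0.36. Egln3 made up 27.9% and 27.5% of the reads of the pair in the WT libraries, 37.5% in KO1 and 41.2% in KO2.

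Of the remaining hypoxia response genes, 5 passed the minimum. Of these, 4 were below 0 in both KO libraries, beside 37.6% of all genes, and 1, Ndrg1, was above. Bnip3, a mitophagy receptor that is induced by HIF, lies at 138890836 to 138909519 on chromosome 7 and had 1785, 1382, 433 and 872 reads. Its log2 changes were -1.12 (-1.28 to -0.97) in KO1 and -0.65 (-0.78 to -0.53) in KO2, and 16.6% of its words occurred in other genes. Ndrg1, likewise a gene of the hypoxia response, was higher in both, with 1126, 276, 287 and 408 reads and changes of 0.60 (0.36 to 0.85) and 0.57 (0.35 to 0.80). In both it was below its E7.5 WT level, and between the WT stages it fell by 2.07 on the log2 scale (-2.27 to -1.88). Ankrd37, a HIF target of unclear role, was the other gene called lower between the stages, with 120, 50, 31 and 43 reads, and the 2 genes compare with 7.82% of all genes.

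Vegfa, the growth factor that drives vessel formation, had 999 and 1597 reads in WT at E7.5 and E8.5, and 921 and 1123 in KO1 and KO2, and gave -0.24 and -0.49 against E8.5 WT. Its KO levels lay between those of the WT stages. P4ha1, a collagen prolyl hydroxylase subunit, gave -0.21 and -0.10 from 2016, 1546, 912 and 1428 reads. Car9, a carbonic anhydrase that is a classical marker of hypoxia, was not detectable above 3 to 8 reads in any library, and no change was computed. Across the 9 oxygen sensing and other hypoxia response genes that passed the minimum, 3 had intervals below 0 in both KO libraries and 2 had intervals above 0, beside 15.8% and 13.7% of all genes.

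Genes of the pathway outside the list of 39 were taken from lists compiled for this work. Of 29 other glycolysis genes, 24 passed the minimum, with medians of -0.08 in KO1 and 0.02 in KO2. In both KO libraries 2 were called lower and 0 higher, beside 1.79% and 3.44% of all genes. Pklr, the liver and red cell pyruvate kinase, was 1 of the genes called lower, with 88, 116, 36 and 32 reads. Visceral endoderm and primitive erythroid markers were also lower in the KO libraries than in E8.5 WT, and their part in this value was not tested. Of 44 other hypoxia response genes, 41 passed the minimum, with medians of -0.16 and -0.10. In both KO libraries 1 was called lower and 1 higher. Stc1, a secreted glycoprotein, was called lower in both from 133, 93, 12 and 35 reads. Adm, the vasoactive peptide adrenomedullin, which was named after its values were seen, had 111, 14, 5 and 1546 reads, so that its reads in the KO embryos were almost all in KO2. KO2 also had the highest sum of trophoblast markers, at 1053 CPM, and the part of these cells in the Adm value was not tested.

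The neighbouring pathways of pyruvate oxidation and of pentose phosphates had no calls. All 26 genes of pyruvate entry and the citrate cycle passed the minimum and 0 were called in either direction, with medians of 0.00 in KO1 and 0.04 in KO2 and a range from -0.32 to 0.64. Of 9 genes of the pentose phosphate pathway, 8 passed and 0 were called, with medians of -0.12 and -0.03. Of all genes, 1.79% were called lower in both KO libraries and 3.44% higher. Lists this short hold few calls at such shares, so the lack of calls does not set them apart. The medians of the 37 genes, -0.28 and -0.22, were lower than those of these lists, and the difference between lists was not tested.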

How the data were processed

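RNA-seq counts of 4 libraries of whole ICR mouse embryos were used, grouped by their labels. The authors deposited whole-number read counts for each gene, not normalized. Stranded mRNA libraries were, per the methods and the submitters' processing notes, trimmed with Cutadapt 2.8, aligned to mm10 with HISAT2 2.1.0 and counted over exons with featureCounts 2.0.0, strand-specifically. The options given name no setting for reads that map to several genes.

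Normalization used TMM factors of edgeR 4.0.16 (R 4.3.3), computed on the whole table. The factors were 0.983 and 0.978 for WT (E7.5, E8.5), 1.02 for KO1 and 1.01 for KO2. A gene needed 10 counts in 1 library or more to be tested, which 14393 genes had. Log2 changes used a prior count of 2, and the criterion of 1 on the log2 scale was that of the study. Intervals are exact Clopper-Pearson 95% intervals of the reads. The two-sided edgeR quasi-likelihood test set KO against E8.5 WT (1 residual degree of freedom) or against both WT libraries, adjusted over all genes by Benjamini-Hochberg. DESeq2 1.42.0 was the alternative. Tests were not made between single libraries. The labels do not say whether the KO libraries came from separate litters, so p-values measure only the spread between these samples.

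The 39 genes, their roles and the other lists were chosen with earlier results of these data known. Values of some single genes of the other lists are not reported here. Named genes were those past 1 in any comparison and the most abundant of each role, with all others accounted for. Gene positions and shared 50-base words came from GENCODE vM21 (GRCm38, the assembly of mm10), and promoters from RefSeq. The biological coefficient of variation was 0.2 in simulated counts, smaller than the 27.5% edgeR estimated here. Of 14393 genes simulated for KO against E8.5 WT, 200 had a log2 change of 3, up or down. The threshold recovered 200 and called 106 others, edgeR recovered 199 and called 10, and DESeq2 recovered 195 and called 3. Among the glycolysis and hypoxia genes tested, the largest change against E8.5 WT was -1.81, for Pdk1 in KO1. Changes of that size or smaller were not simulated, so the recovered counts do not show how often such changes would be found. Alternatives were other normalizations, filters, prior counts, thresholds and leaving out each KO library. Python 3.11.15 and matplotlib 3.10.9 made the figures.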

Additional observations from a re-analysis of the deposited data

How the results depend on the processing

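Of 261 values recomputed under the alternatives, 238 moved little and 23 moved by more. Little meant less than the spread between the KO libraries or, for counts, at most 1.5 times. Reversal of sign was labelled only for the called genes, Pdk1 and Pdk4, and neither reversed. Among the other genes, the mean log2 change of Slc2a1, Pfkm and Egln3 changed sign without KO2, and that of Hk1 and Slc16a1 without KO1. For Slc2a1 it went from -0.08 to 0.33. With plain CPM the median log2 change of the glycolysis and hypoxia genes was -0.22 in KO1 and -0.17 in KO2. A prior count of 0.5 gave 3 genes lower at E8.5 than at E7.5 in place of 2. A minimum of 50 counts removed Pdk4, which left 0 genes called higher in both KO libraries. A threshold of 0.5 gave 3 genes higher in both KO libraries and 7 lower, 7 below both WT libraries, 3 higher and 9 lower at E8.5 than at E7.5, and 6 higher and 3 lower in KO2 than in KO1. Leaving out KO2 raised the count of genes called lower from 1 to 6, both against E8.5 WT and against both WT libraries, while leaving out KO1 left it at 1. Over all genes, the edgeR test against E8.5 WT called 0, but 8 with no filter on low counts (0 of the 39 genes), and DESeq2 called 31. Against both WT libraries edgeR called 0, but 51 without KO1 and 1 without KO2 (0 of the 39 genes in each), and DESeq2 called 32. The cause of these differences was not tested, apart from fewer samples or a wider set of genes by construction. Leaving out a KO library moves a mean of 2 by less than its SD by construction, and no residual degree of freedom then remains in the test against E8.5 WT. No paired analysis was possible because the replicate numbers of the WT and KO libraries share only the number 1. Depth limits Pdk4 and Car9, and a single library per WT stage limits every comparison with WT. Few reads limit Eno1, and the part of sequence shared with Eno1b in this was not tested.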
